A study of Homo sapiens with 8 samples.

Results

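EGR1, EGR2, EGR3 and EGR4, the 4 early growth response genes, were taken as the rows of those names in a matrix of 60286 genes, and all 4 were present. EGR proteins are zinc-finger transcription factors that bind GC-rich DNA. Their genes are immediate early genes, transcribed soon after a stimulus without new protein synthesis, largely through SRF with its ELK partners at CArG boxes and through CREB at cyclic AMP response elements. In neurons EGR1 and EGR3 are common readouts of activity, EGR2 is known for hindbrain patterning and Schwann cell myelination, and the corepressors NAB1 and NAB2 bind EGR1, EGR2 and EGR3. NAB2 is itself a target of EGR factors.

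The study profiled single cells of 2-D and 3-D neural cultures by split-pool RNA sequencing, to describe the cultures and what dopamine, cocaine and morphine do to their expression. The cultures come from H1, a long-established line of human embryonic stem cells. The 8 deposited samples are sublibraries of 1 pool, and 46 culture tags in the cell names carry the design. A tag gives an arrangement and, for 34 tags, a treatment code. The codes are used here as written, since the labels name dopamine, cocaine, morphine and an untreated state without a key to the tags. The 2DCocu arrangement had 4 AcCoc, 4 AcMor and 4 Vehic tags, and 3DFusi had 4, 3 and 3. In 2DMono and in 3DMono there were 2 AcDop, 2 AcMor and 2 Vehic tags each. The other 12 tags name culture protocols without a treatment: 2DProto2Fjo, 2DProto3Wu and 2DProto4Nic with 2 tags each, and 3DProto1For and 3DProto2Xia with 3 each. All tags share the H1 line and the pool. Whether numbered tags are separate cultures is not stated, so n counts tags and p-values measure only the spread between tags, which may be technical. The sources describe papain dissociation of pooled organoids and none for 2-D cells, so that culture format and handling before fixation cannot be told apart in any 3-D against 2-D comparison. In sums over a tag, fewer cells of a type and less RNA per cell cannot be told apart either.

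The 43693 cells had a median of 12776 counts each, and tags held 317 to 1959 cells and totals of 3624668 to 58777178 counts. The labels give the cell type as hESC. The pluripotency genes POU5F1, NANOG and LIN28A had median levels of 0.732, 0.401 and 0.694 CPM (counts per tag scaled to a common total) over the 46 tags, and UTF1 was at 0 in 34 of them. The neuronal genes STMN2 and MAP2 had medians of 150 and 1172 CPM and were detected in all 46 tags. The tags thus carry neural markers above those of the labelled type, which does not speak for every cell. Mesenchymal-like cells, named from markers below, were 19.3% of 3DFusi and 32.7% of 3DProto1For cells. Median counts per cell were 10761 in the median 2-D treated tag and 12377 in the median 3-D treated tag, and the mitochondrial share was 2.33% and 2.48%. Some barcodes, 2393 of them, occurred in more than 1 sublibrary.

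EGR1 lies on chromosome 5 at 138465490 to 138469315 on the plus strand with 2 exons (GENCODE 29, GRCh38). EGR2 lies on chromosome 10 at 62811996 to 62919900 on the minus strand with 6 annotated transcripts of 2 to 8 exons, and EGR4 on chromosome 2 at 73290929 to 73293705 on the minus strand with 2 exons. The 250 bases before the EGR1 start (chr5:138465229-138465478, plus strand, 5' to 3', RefSeq, GRCh38.p14) and before the third RefSeq start of EGR2 (chr10:62816367-62816616, minus strand) are shown because they hold the SRF element, among the windows read for EGR1, EGR2 and EGR4. The EGR3 window was not analysed here. Capitals mark CArG boxes and the cyclic AMP element core TGACGT, read on either strand (ACGTCA on the opposite one).
EGR1: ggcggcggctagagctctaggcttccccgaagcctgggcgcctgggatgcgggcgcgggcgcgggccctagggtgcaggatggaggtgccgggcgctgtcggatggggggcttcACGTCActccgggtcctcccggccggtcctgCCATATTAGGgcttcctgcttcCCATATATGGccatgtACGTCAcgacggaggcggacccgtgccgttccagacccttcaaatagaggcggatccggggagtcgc
EGR2: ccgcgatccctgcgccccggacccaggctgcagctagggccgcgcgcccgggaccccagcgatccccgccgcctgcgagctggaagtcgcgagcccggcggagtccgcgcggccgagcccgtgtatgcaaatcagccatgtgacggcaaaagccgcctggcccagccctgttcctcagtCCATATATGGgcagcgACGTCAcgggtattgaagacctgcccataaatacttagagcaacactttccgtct
The EGR1 window holds 2 CArG boxes, at 105 to 96 and 83 to 74 bases before the start, and 2 copies of ACGTCA. The EGR2 window holds 1 of each, the CArG box at 71 to 62 bases. The windows of the other 2 EGR2 starts hold neither, and that of EGR4 holds 2 copies of the cyclic AMP core and no CArG box. Of the 250 bases of the EGR4 window, 157 are exonic in GENCODE 29, and the copy at 110 to 105 bases before the RefSeq start lies among them. Of 35116 windows of the same length from 27305 genes, 1.16% held a CArG box, 7.10% held TGACGT on either strand and 11 windows (0.0313%) held at least 2 CArG boxes. The EGR binding words GCGTGGGCG and GCGGGGGCG, in 0.720% and 4.72% of windows, were in none of the EGR1, EGR2 and EGR4 windows. A match is a description of the letters and not evidence of binding.

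EGR1 gave 90.6% of all EGR counts, with 109933 counts over the 46 tags and at least 1 count in 20492 cells (46.9%, exact 95% binomial interval 46.4 to 47.4%, which covers counting error only). EGR3 was counted in 4855 cells (11.1%, 10.8 to 11.4%) and EGR2 in 2199 cells (5.03%, 4.83 to 5.24%). EGR4 was near the limit of detection: it had 178 counts in 157 cells (0.359%, 0.305 to 0.420%), was at 0 in 8 tags, and entered none of the tests because its counts were under the filter on low counts.

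EGR1, the member most used as an activity marker, was high in the 3-D tags and low in most 2-D tags. In 3DMono the 6 tags ran from 119 to 288 CPM with a median of 231, and in 3DFusi the 10 tags ran from 132 to 288 CPM with a median of 208. The 6 tags of 2DMono lay between 42.1 and 72.8 CPM and the 12 tags of 2DCocu between 49.2 and 91.4 CPM, so neither 3-D arrangement overlapped its 2-D partner. The protocol tags spread further. The levels in 3DProto1For were 307, 291 and 149 CPM, and those in 3DProto2Xia were 125, 147 and 330 CPM. In 2-D, 2DProto2Fjo had 124 and 133 CPM, 2DProto4Nic 42.8 and 46.9 CPM, and 2DProto3Wu 16.8 and 13.9 CPM. By arrangement mean the order was 3DProto1For (249 ± 87.2, SD, n = 3), 3DMono (214 ± 68.3, n = 6), 3DFusi (203 ± 48.3, n = 10), 3DProto2Xia (201 ± 112, n = 3), 2DProto2Fjo (129 ± 6.31, n = 2), 2DCocu (69.1 ± 13.9, n = 12), 2DMono (52.9 ± 12.7, n = 6), 2DProto4Nic (44.9 ± 2.91, n = 2) and 2DProto3Wu (15.3 ± 2.04, n = 2). The ranges of the 4 3-D arrangements overlapped one another, and the 2DProto2Fjo tags (124 and 133 CPM) overlapped the low ends of 3DProto2Xia, 3DMono and 3DFusi. Among the 2-D arrangements, both tags of 2DProto2Fjo lay above all others and both of 2DProto3Wu below all others.

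EGR3, which like EGR1 follows neuronal activity, had the same order of formats in the treated arrangements. It lay between 9.20 and 37.6 CPM in 3DFusi, between 5.20 and 15.3 CPM in 3DMono, between 2.73 and 5.06 CPM in 2DCocu and between 1.4995 and 4.32 CPM in 2DMono. The highest mean was that of 3DProto1For, whose tags had 38.5, 43.1 and 22.7 CPM, and the lowest tags were those of 2DProto3Wu with 1.11 and 0.988 CPM. EGR2 rests on fewer counts per tag. It ranged from 3.29 to 8.34 CPM in 3DFusi, from 1.82 to 5.17 CPM in 3DMono, from 1.20 to 3.15 CPM in 2DCocu and from 0 to 2.02 CPM in 2DMono. The tag at 0 was 2DMonoAcDop1. The tags of 3DProto1For had 11.8, 12.6 and 2.95 EGR2 CPM. The tags of 2DProto2Fjo had 6.68 and 10.3 EGR3 CPM and 4.80 and 4.88 EGR2 CPM, all within the 3DMono ranges. EGR4 had means of 0.249 CPM in 3DFusi, 0.237 in 2DCocu, 0.0961 in 3DMono and 0.286 in 2DMono. Its highest means were 0.527 CPM in 3DProto1For and 0.450 CPM in 3DProto2Xia. Each rests on few counts, so no order of formats can be read for EGR4.

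**Figure D1:**
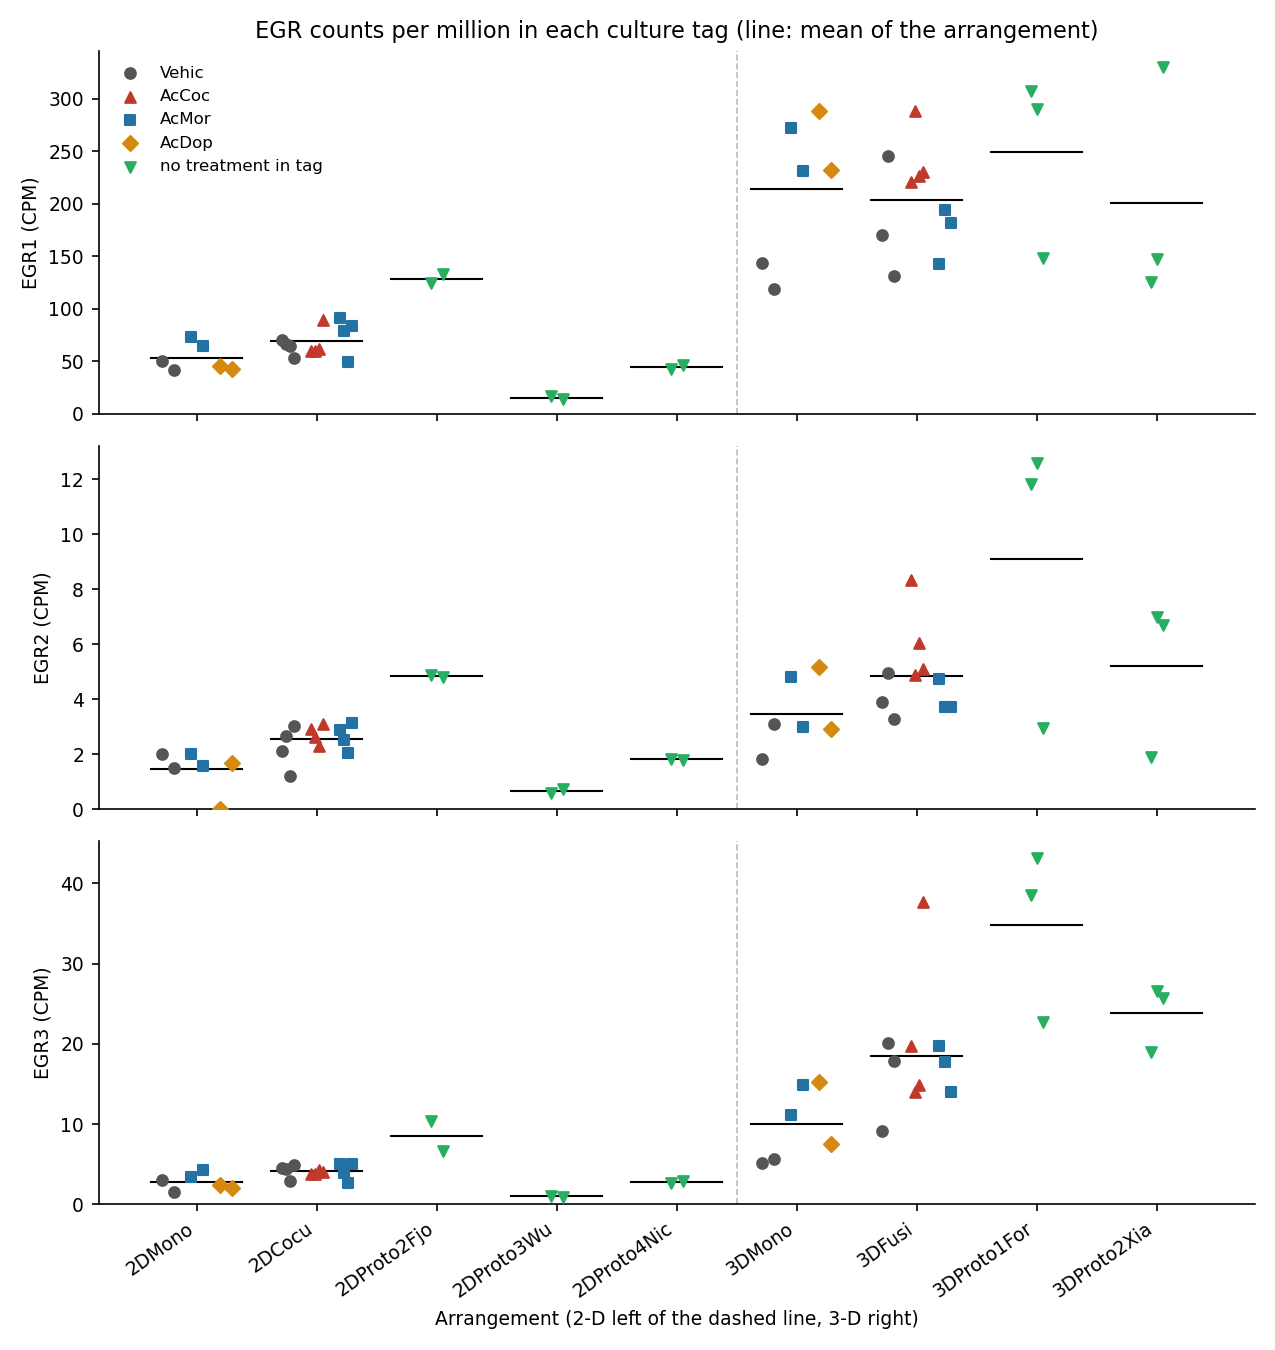
Level of EGR1, EGR2 and EGR3 (CPM, linear axes from 0) in every culture tag by arrangement, 2-D left and 3-D right of the dashed line. Points are tags, with shape and colour for the treatment code, and lines are arrangement means; the means of all 3 genes sit higher in 3DMono and 3DFusi than in 2DMono and 2DCocu.

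The comparison of 3-D with 2-D cultures asks how the format goes with EGR levels. The fit was edgeR's quasi-likelihood model, treatment code being a covariate, and p-values were adjusted by Benjamini-Hochberg over all genes tested. EGR1 was higher in 3DMono than in 2DMono, at 214 ± 68.3 against 52.9 ± 12.7 CPM (SD, n = 6 tags each; log2 fold change 1.79 with an SE of 0.16, edgeR adjusted p = 1.41e-06). EGR3 was higher as well, at 9.96 ± 4.47 against 2.81 ± 0.995 CPM, a 2.83-fold difference in the fit (SE 0.26 on the log2 scale, edgeR adjusted p = 0.000393). With the Vehic tags alone the EGR3 log2 fold change was 0.84 and missed the threshold (edgeR adjusted p = 0.179). EGR2 had 3.46 ± 1.29 against 1.47 ± 0.746 CPM, and its log2 fold change of 0.88 (SE 0.39) missed the threshold of 0.05 (edgeR adjusted p = 0.0955) although DESeq2 (adjusted p = 0.0270) and edgeR without the filter on low counts (adjusted p = 0.00382) called it. In the Vehic tags alone it was 0.07, and without the first Vehic tag of 2DMono or of 3DMono it was called (edgeR adjusted p = 0.0454 and 0.0471). The test thus called 2 of 3 tested members, both higher, where 37.1% of the 22669 genes tested were called, 17.1% higher and 19.9% lower. EGR1 and EGR3 did not overlap between the groups and EGR2 did, and 12.8% of all genes were separate with 3-D higher.

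In 3DFusi against 2DCocu all 3 tested members were called higher. EGR3 had 18.5 ± 7.54 CPM in 10 tags against 4.14 ± 0.758 CPM in 12 tags (log2 fold change 2.01 with an SE of 0.17, edgeR adjusted p = 1.59e-09). EGR1 had 203 ± 48.3 against 69.1 ± 13.9 CPM (log2 fold change 1.43 with an SE of 0.13, edgeR adjusted p = 6.35e-09). EGR2 had 4.87 ± 1.47 against 2.54 ± 0.570 CPM (log2 fold change 0.81 with an SE of 0.16, edgeR adjusted p = 0.000299), and with the Vehic tags alone its value of 0.80 missed the threshold (edgeR adjusted p = 0.0785). Here 48.3% of 23504 genes were called, 25.2% higher and 23.1% lower, so a call alone says little about the members. The groups did not overlap for any of the 3, and 2.93% of all genes were separate with 3-D higher. Same-numbered 3DFusi tags deviated together, and with them summed by number the log2 fold changes were 1.59, 0.88 and 1.92 for EGR1, EGR2 and EGR3 and all 3 were still called.

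**Figure D2:**
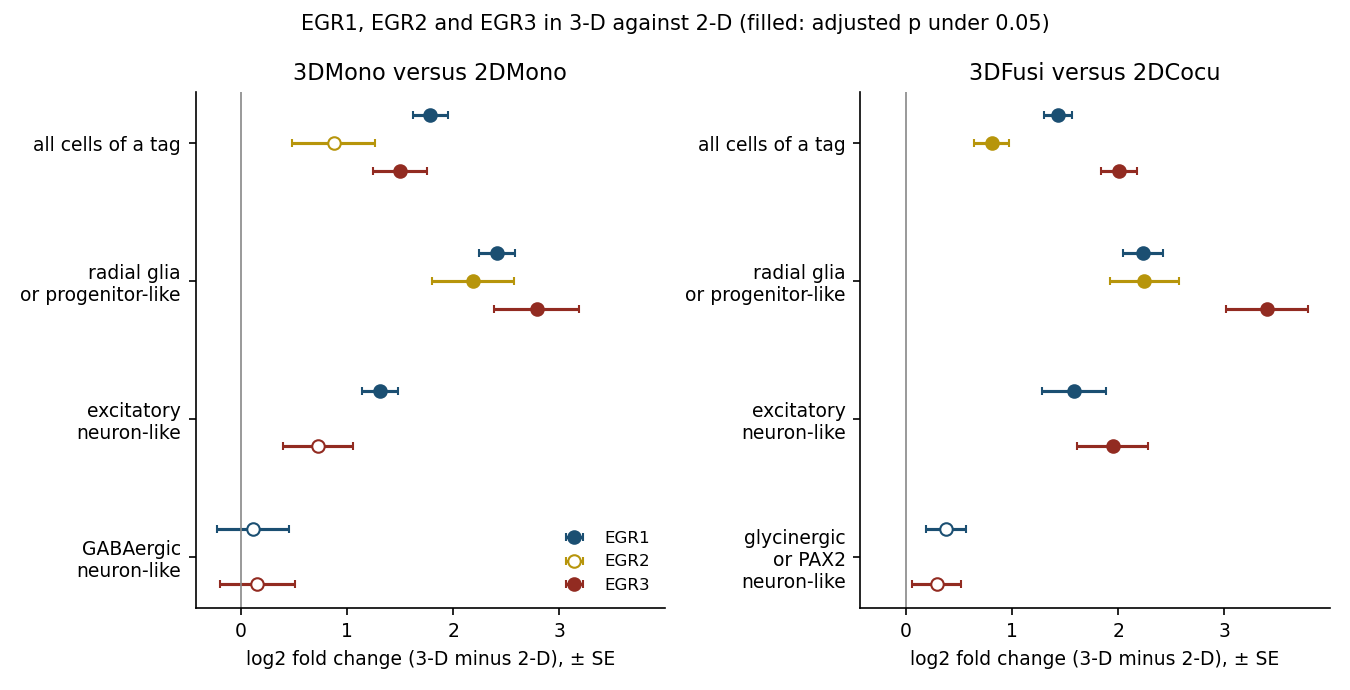
Log2 fold change of 3-D over 2-D (points, with bars of 1 SE) for EGR1, EGR2 and EGR3 over all cells of a tag and within marker-defined classes, filled where the edgeR adjusted p is under 0.05. The progenitor-like points lie furthest from 0, and the EGR1 and EGR3 points of GABAergic-like and glycinergic-like cells are open, at 0.11 to 0.38. EGR2 is not shown for the neuron-like classes, where its counts were too few to test.

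The joined arrangements were compared with the single ones in the Vehic and AcMor tags, which also entered the tests above. No EGR gene was called. EGR3 had 16.4 ± 4.15 CPM in 6 tags of 3DFusi against 9.22 ± 4.61 CPM in 4 tags of 3DMono (log2 fold change 0.84 with an SE of 0.26, edgeR adjusted p = 0.127), and DESeq2 called it (adjusted p = 0.0356). Both fits take the 3DFusi tags as separate, although same-numbered ones deviated together. EGR1 had 178 against 192 CPM with a log2 fold change of -0.14 (edgeR adjusted p = 0.822), which turned to 0.41 in the Vehic tags alone. In this pair 1.40% of genes were called. For 2DCocu against 2DMono, where 28.4% of genes were called, the log2 fold changes of EGR1, EGR2 and EGR3 were 0.23, 0.30 and 0.35 (edgeR adjusted p = 0.244, 0.392 and 0.264).

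Each treatment code was set against the Vehic tags of its own arrangement, which the codes of that arrangement share. No EGR gene was called by edgeR in any of the 8 contrasts, although 5 of the 24 tests had an unadjusted p under 0.05 and DESeq2 called 3. In 3DMono, where 0% of 22110 genes were called for AcDop and 0% for AcMor (740 and 1925 genes at an unadjusted p under 0.05), EGR1 had 144 and 119 CPM in the 2 Vehic tags, 288 and 232 CPM with AcDop, and 272 and 231 CPM with AcMor. Both Vehic tags were thus the lowest of the 6. The placing of treated and Vehic tags, here and within classes, is given without its share over all genes and is a description only. The log2 fold changes were 0.99 (SE 0.19, unadjusted p = 0.00064, edgeR adjusted p = 1.00) for AcDop and 1.03 (SE 0.19, unadjusted p = 0.000474, edgeR adjusted p = 0.262) for AcMor. DESeq2 called both (adjusted p = 0.0410 and 0.00210), and so did edgeR without the filter on low counts (adjusted p = 6.55e-06 and 2.82e-07). With a block for the tag number edgeR called AcMor too, at a log2 fold change of 1.03. Without the second AcMor tag edgeR called AcMor (adjusted p = 0.0169), but that arm then holds 1 tag, which is assumed to vary like the other groups, as in every omission of a 3DMono or 2DMono tag from a treatment contrast. EGR3 showed the same placing, with 5.20 and 5.69 CPM in Vehic, 15.3 and 7.58 CPM with AcDop and 11.1 and 14.9 CPM with AcMor. Its log2 fold change was 1.33 for AcMor (edgeR adjusted p = 0.378; DESeq2 adjusted p = 0.0480) and 1.07 for AcDop. The AcDop value was 0.48 without AcDop replicate 1 and 1.49 without AcDop replicate 2. EGR2 overlapped between treatments, with 1.82 and 3.09 CPM in Vehic, 5.17 and 2.90 CPM with AcDop and 4.81 and 3.00 CPM with AcMor. Median counts per cell were 12252 and 9972 in the Vehic tags, 12913 and 9625 with AcDop and 21683 and 9501 with AcMor, and the mitochondrial share was 1.304% and 1.93%, 2.38% and 2.25%, and 1.33% and 1.95%. Their part in the EGR values was not tested.

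In 2DMono, where 0% of 19416 genes were called for AcDop and 0% for AcMor, EGR1 had 49.96 and 42.1 CPM in Vehic, 45.5 and 43.0 CPM with AcDop, and 72.8 and 64.2 CPM with AcMor. AcMor lay above the other 4 tags, with a log2 fold change of 0.51 (unadjusted p = 0.0251, edgeR adjusted p = 0.776). The AcDop effect on EGR1 was 1.10 log2 units larger in 3DMono than in 2DMono (unadjusted p = 0.0017, edgeR adjusted p = 1.00), and the AcMor effect 0.58 larger (unadjusted p = 0.0539), and 0% of genes passed either interaction test. In 2DCocu 6.09% of 21033 genes were called for AcCoc and 0.970% for AcMor, without EGR genes. EGR1 there had 60.2, 59.5, 61.8 and 89.3 CPM with AcCoc, 91.4, 79.2, 49.2 and 84.0 CPM with AcMor, and 70.6, 66.9, 64.3 and 53.1 CPM in Vehic, and the 3 ranges overlapped. In 3DFusi, where 0% of 23676 genes were called for AcCoc and 0% for AcMor, EGR1 had 221, 288, 226 and 230 CPM with AcCoc, 143, 194 and 182 CPM with AcMor, and 170, 245 and 132 CPM in Vehic. EGR2 had a mean of 6.10 CPM with AcCoc against 4.05 CPM in Vehic, and EGR3 21.5 against 15.7 CPM. The EGR3 medians were 17.4 CPM with AcCoc, where the highest tag had 37.6 CPM, and 17.8 CPM in Vehic. The AcCoc log2 fold change of EGR1 was 0.44 (edgeR unadjusted p = 0.0746) and that of AcMor was -0.01. The AcCoc value was 0.23 without Vehic replicate 4 and 0.66 without Vehic replicate 3. Tags were not paired by number in this fit. AcCoc replicate 2, the tag at 288 CPM, has no AcMor or Vehic tag of its number. Neither treatment effect on an EGR gene differed between 3DFusi and 2DCocu past the threshold, where 0.00425% of genes passed the interaction test for AcCoc and 0% for AcMor.

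**Figure D3:**
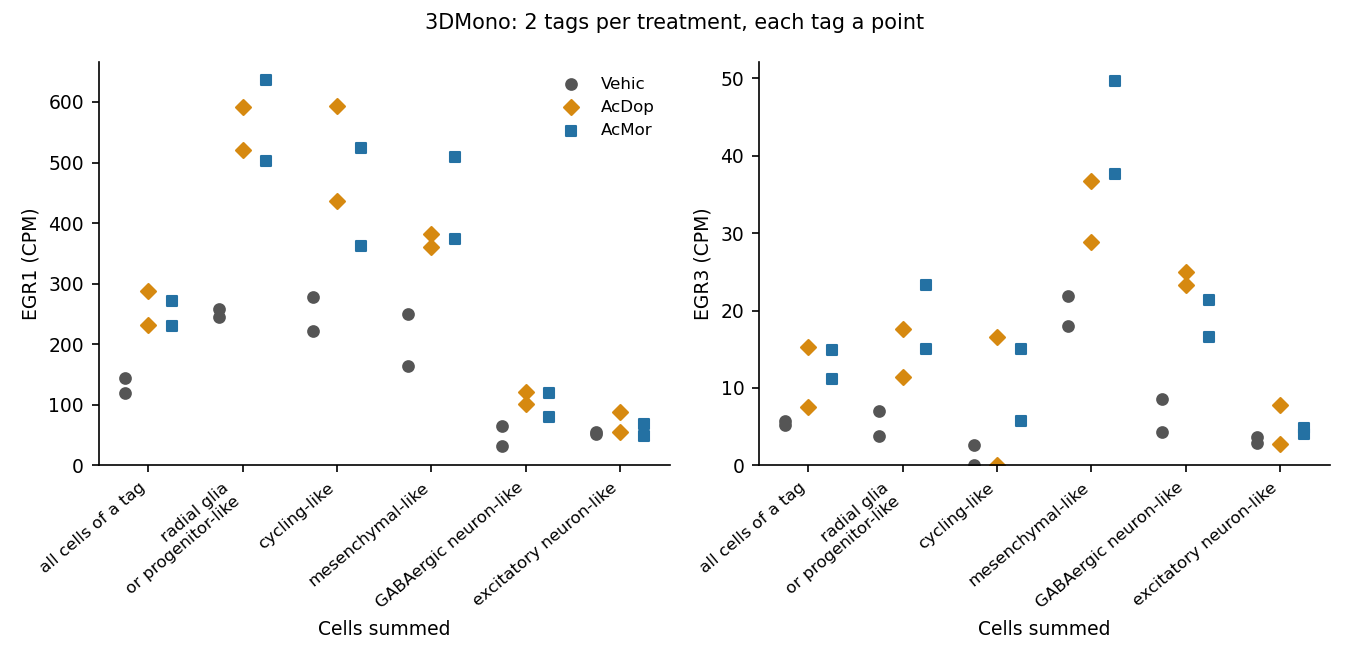
EGR1 (left) and EGR3 (right) level (CPM) in each 3DMono tag by treatment code, over all cells and within 5 classes; each point is 1 tag. Over all cells and in progenitor-like, mesenchymal-like and GABAergic-like cells both Vehic tags lie below all AcDop and AcMor tags for both genes, and in excitatory-like cells they do not.

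Cells were clustered without the EGR genes, and clusters were named from marker lists, so that levels could be followed within a class. Among the named classes EGR1 was highest in progenitor-like and mesenchymal-like cells of 3-D cultures and lowest in excitatory neuron-like cells of both formats. In 3-D tags its median was 364 CPM in radial glia or progenitor-like cells (18 tags), 339 in mesenchymal-like (18), 298 in cycling-like (16), 222 in muscle-like (4), 221 in ciliated or floor plate-like (14) and 181 in choroid plexus-like cells (11). The neuron-like classes followed with 92.8 CPM in glycinergic or PAX2 (17), 87.4 in GABAergic (19) and 55.9 in excitatory cells (19). Neighbours in that order were hard to part: progenitor-like exceeded mesenchymal-like cells in 10 of 14 tags holding both, and glycinergic-like exceeded GABAergic-like cells in 8 of 14. Choroid-like cells exceeded glycinergic-like cells in 9 of 9 tags and GABAergic-like exceeded excitatory-like cells in 15 of 19.

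The 2-D order, of named classes only, was led by classes measured in few tags. Choroid-like cells had a median of 252 EGR1 CPM in the 2 tags of 2DProto2Fjo, and astrocyte-like cells 152 CPM in 3 tags of 2DMono. Progenitor-like cells had 64.8 CPM (18 tags), GABAergic-like 53.7 (12), glycinergic-like 53.3 (19), mesenchymal-like 50.1 (11), cycling-like 29.5 (7) and excitatory-like 21.2 CPM (22). Progenitor-like cells had a higher median than every neuron-like class in both formats. The 2-D medians come from different sets of tags, and progenitor-like exceeded GABAergic-like cells in 5 of 7 2-D tags holding both. Mesenchymal-like and cycling-like cells had a higher median than all 3 in 3-D and a lower one than GABAergic-like and glycinergic-like cells in 2-D. Most mesenchymal-like cells fell in cluster 22 in 2DMono, 2DCocu and 2DProto4Nic and in cluster 4 in all 4 3-D arrangements, while all cycling-like cells fell in cluster 10.

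EGR3 had another order. In 3-D its median was 38.9 CPM in muscle-like and 35.8 in mesenchymal-like cells, then 21.4 in GABAergic-like, 16.2 in glycinergic-like, 14.1 in progenitor-like and 8.58 CPM in excitatory-like cells. Mesenchymal-like exceeded GABAergic-like cells in 15 of 15 tags. In 2-D the GABAergic-like and glycinergic-like cells had 9.73 and 9.40 CPM and the progenitor-like cells 1.03 CPM. EGR3 was higher in GABAergic-like than in progenitor-like cells in 7 of 7 2-D tags but in 11 of 18 3-D tags, and in glycinergic-like cells in 13 of 13 and 9 of 13. EGR2 in 3-D had its highest median, 15.5 CPM, in muscle-like cells (4 tags), and it had 7.50 CPM in progenitor-like and 7.38 in mesenchymal-like cells against 1.38, 1.31 and 1.03 CPM in excitatory-like, GABAergic-like and glycinergic-like cells.

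**Figure D4:**
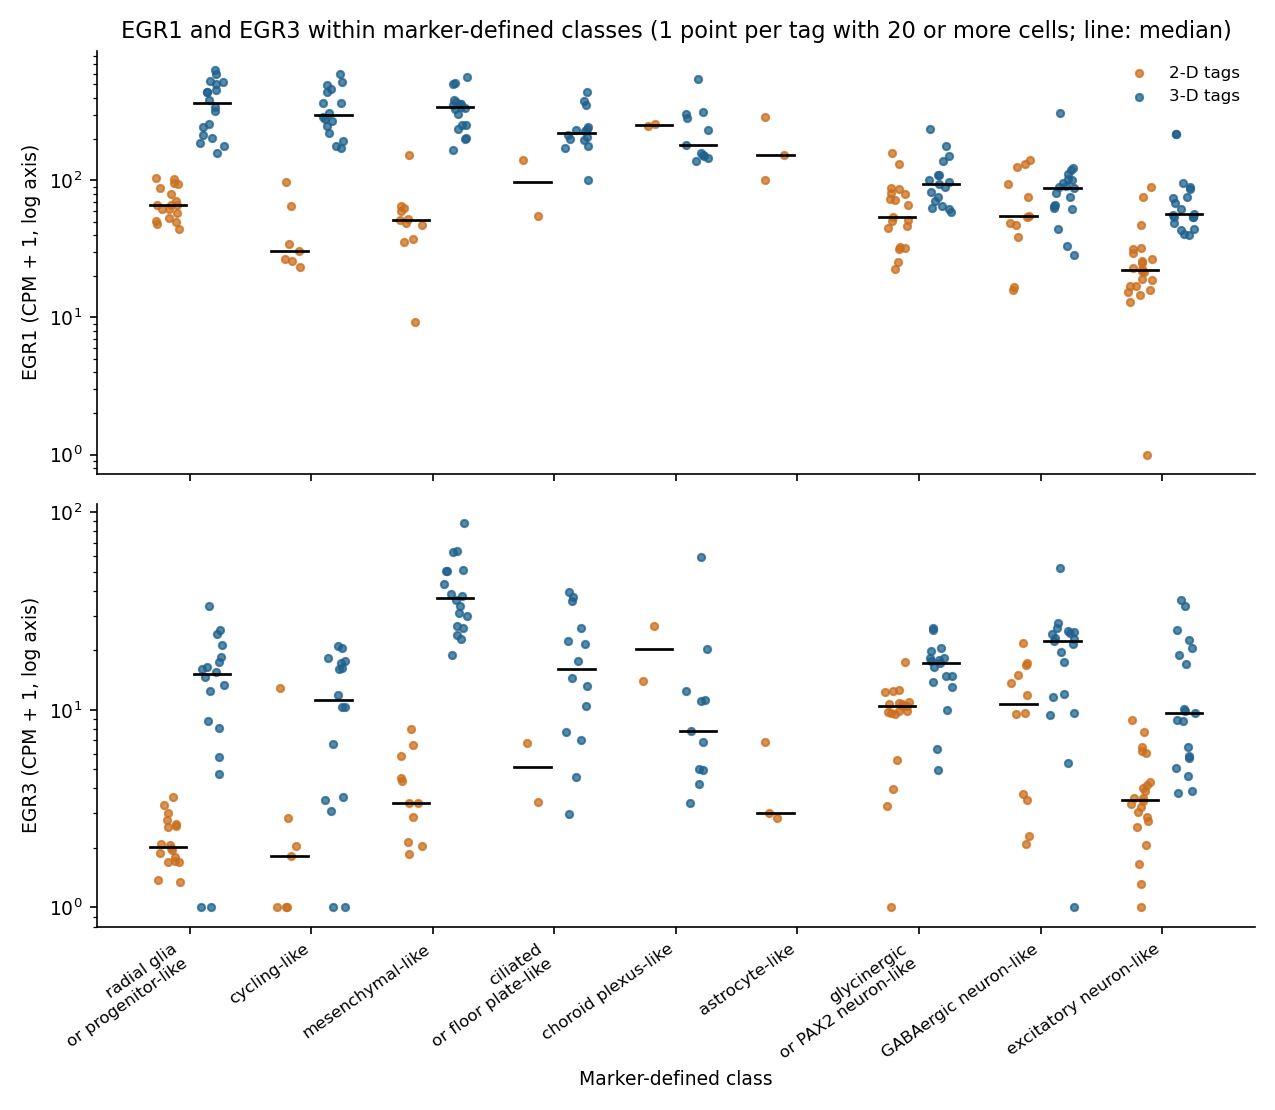
EGR1 (top) and EGR3 (bottom) level (CPM + 1, log axis) in marker-defined classes of 2-D and 3-D tags with at least 20 cells of the class; points are tags and lines medians. EGR1 points of progenitor-like cells lie apart between the formats and the ranges of the neuron-like classes overlap, a description without its share over all genes.

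The shares of counts of the named classes, pooled over the tags of an arrangement and so weighted by depth, followed these levels. Progenitor-like cells were 20.05% of 3DMono cells and held 35.7% of its EGR1 and 34.9% of its EGR2 counts, while excitatory-like cells were 26.8% of cells and held 7.49% of EGR1 counts. In 3DFusi mesenchymal-like cells were 19.3% of cells and held 34.0% of EGR1 and 41.1% of EGR3 counts. In 2DMono GABAergic-like cells were 14.1% of cells and held 34.5% of EGR3 and 50.4% of EGR4 counts. The first Vehic tag, the deepest, had 20.2 EGR4 counts over all its cells, and the other 5 tags had 0 to 7.00 each. In 2DCocu glycinergic-like cells were 15.4% of cells and held 44.8% of EGR3 and 54.8% of EGR4 counts. Most of them fell in cluster 12, where a doublet score marked 20.98% of cells, against 6.35% of all cells. These shares were not recomputed without doublets. In 2DProto2Fjo, the 2-D arrangement with the highest EGR1, choroid-like cells were 23.2% of cells and held 70.7% of EGR2 counts. Their EGR1 levels in its 2 tags were 247 and 257 CPM.

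Formats were compared within progenitor-like, excitatory-like, GABAergic-like and glycinergic-like cells, and not within mesenchymal-like or cycling-like cells. In progenitor-like cells EGR1, EGR2 and EGR3 were higher in 3-D in both pairs. Most 2-D cells of that class fell in cluster 1 and most 3-D ones in cluster 5. With coarser clusters, the progenitor-like cluster of 2-D cells (0.190% 3-D) was named from VIM, NES, HES1 and SLC1A3. That of 3-D cells (98.2% 3-D) was named from PAX6, HES5, SLC1A3 and FABP7, with only SLC1A3 in common. A change within a cell type and a different cell type cannot be told apart here. In 3DMono against 2DMono, EGR1 had 459 ± 168 against 68.2 ± 21.04 CPM in them (log2 fold change 2.41, SE 0.17), EGR3 had 13.1 ± 7.19 against 1.16 ± 0.534 CPM (2.79, SE 0.40) and EGR2 had 7.21 ± 2.88 against 0.943 ± 0.521 CPM (2.18, SE 0.39). All 3 were called by edgeR, where 52.4% of genes were. In 3DFusi against 2DCocu (9 and 12 tags) the 3 log2 fold changes were 2.24 (SE 0.19), 3.40 (SE 0.39) and 2.25 (SE 0.32) for EGR1, EGR3 and EGR2, all called where 50.3% of genes were. The 3DFusi progenitor-like tags spread from 176 to 530 EGR1 CPM and the 2DCocu ones from 42.8 to 103 CPM. The share of all genes that separate within this class was not counted, so these ranges are a description only.

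Excitatory-like cells, mostly cluster 3 in 2-D and cluster 2 in 3-D, had lower levels and a difference in the same direction. EGR1 had 61.2 ± 14.7 against 22.0 ± 4.14 CPM in 3DMono and 2DMono (log2 fold change 1.31, SE 0.17), called where 32.9% of genes were, and 75.9 ± 52.5 against 21.4 ± 11.7 CPM in 3DFusi and 2DCocu (1.59, SE 0.30, edgeR adjusted p = 0.000271), called where 40.3% of genes were. EGR3 in these cells had 12.9 ± 7.23 against 3.25 ± 2.32 CPM in 3DFusi and 2DCocu (1.95, called) and 4.37 against 2.14 CPM in 3DMono and 2DMono (0.73, edgeR adjusted p = 0.104). In GABAergic-like cells, cluster 0 in both formats, EGR1 had 86.3 ± 34.6 against 70.9 ± 32.7 CPM (log2 fold change 0.11 with an SE of 0.34, edgeR adjusted p = 0.859), and EGR3 had 17.1 ± 7.98 against 12.4 ± 7.44 CPM, a log2 fold change of 0.16 (SE 0.36), neither called where 21.6% of genes were. The EGR3 value turned to -0.06 with coarser clusters. EGR2 in these cells had 1.702 ± 1.13 against 4.32 ± 3.92 CPM, a lower mean in 3-D, with too few counts to be tested. Glycinergic-like cells, mostly cluster 12 in 2DCocu and cluster 6 in 3DFusi, had EGR1 at 78.4 ± 28.5 against 59.0 ± 21.003 CPM (0.38, SE 0.19, edgeR adjusted p = 0.0991), not called where 48.1% of genes were. With coarser clusters the only cluster of that name was 0.995% 3-D. The name of the 3-D cells, and so every 3-D value of this class, depends on the finer clusters. In cluster 12, 20.98% of cells were marked as doublets, and this comparison was not refitted without them. EGR2 in glycinergic-like cells had 0.701 ± 1.04 against 2.66 ± 1.13 CPM, also with too few counts to be tested.

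The difference between classes was itself tested, by an exact two-sided permutation of the format labels within treatment codes, on the per-tag log2 difference between 2 classes, with p-values adjusted over 12 tests. Progenitor-like cells were mostly cluster 1 in 2-D and cluster 5 in 3-D, so format and cluster cannot be told apart in these tests. Excitatory-like and glycinergic-like cells also changed cluster with format, and the 3-D glycinergic-like name was lost with coarser clusters. The tests were run for EGR1, EGR2 and EGR3 only, so no share over all genes stands beside them. In the Mono pair the 3-D minus 2-D change of progenitor-like cells exceeded that of excitatory-like cells by 1.27 log2 units for EGR1, 2.27 for EGR2 and 1.86 for EGR3 (exact permutation p = 0.00926 each, the smallest the design allows, adjusted p = 0.0159). Against GABAergic-like cells the excess was 2.40 for EGR1 and 2.79 for EGR2 (exact permutation adjusted p = 0.0159 each) and 2.22 for EGR3 (adjusted p = 0.0278). EGR2 had too few counts in the neuron-like classes for the edgeR fits, which limits its differences here and in the other pair. In the 3DFusi and 2DCocu pair the excess over glycinergic-like cells was 1.52 for EGR1 (exact permutation adjusted p = 0.00457) and 1.72 for EGR2 (0.0159), and for EGR3 0.49 (0.559). Over excitatory-like cells in that pair it was 0.30, 1.17 and 0.34 for EGR1, EGR2 and EGR3, and none passed (exact permutation adjusted p = 0.578, 0.0604 and 0.578). These tests take the 3DFusi tags as separate although same-numbered ones deviated together. With their differences averaged by number, an alternative chosen after seeing the data, without strata by treatment code, the excess over glycinergic-like cells (3 numbers) was 1.77 for EGR1 and 2.09 for EGR2 (exact permutation adjusted p = 0.0132 each). It was 1.43 for EGR3, then past the threshold (exact permutation adjusted p = 0.0475). The EGR2 excess over excitatory-like cells (4 numbers) was 1.14 and also passed (exact permutation adjusted p = 0.0475).

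Treatments were also compared within classes, in 46 tests of EGR genes, of which 1 was called, 21 had an unadjusted p under 0.05 and 38 had the treated tags higher. These tests share Vehic tags across codes, classes and genes and are not separate observations. Over all genes, those at an unadjusted p under 0.05 ran from 205 of 12936 (AcMor, GABAergic-like cells of 3DFusi) to 2104 of 13547 (AcCoc, glycinergic-like cells of 2DCocu). The call was EGR1 with AcMor in progenitor-like cells of 3DMono, where 0.0414% of genes were called. These cells had 259 and 246 EGR1 CPM in Vehic and 637 and 503 CPM with AcMor (log2 fold change 1.28 with an SE of 0.19, edgeR adjusted p = 0.0218). Without the first or the second Vehic tag it was no longer called (edgeR adjusted p = 0.205 and 0.246). With AcDop the levels were 520 and 592 CPM, a log2 fold change of 1.16 (edgeR adjusted p = 0.146), where 0% of genes were called. All 4 treated tags lay above both Vehic tags. Leaving out the first or the second AcMor tag, which enters this fit through the shared spread, brought the AcDop value past the threshold (edgeR adjusted p = 0.000607 and 0.000668). In the same cells EGR3 had 3.74 and 7.06 CPM in Vehic, 11.4 and 17.6 CPM with AcDop and 15.1 and 23.2 CPM with AcMor. EGR2 had 3.36 and 4.31 CPM in Vehic, 9.32 and 7.47 CPM with AcDop and 10.8 and 7.78 CPM with AcMor. Neither was called. Treated and Vehic tags did not overlap, which with so few tags is a description only. The class held 314 and 147 cells in Vehic, 128 and 253 with AcDop and 330 and 224 with AcMor.

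In the other 3DMono classes EGR1 was not called for either code. Cycling-like cells had a mean of 514 EGR1 CPM with AcDop and 443 CPM with AcMor against 250 CPM in Vehic, mesenchymal-like cells 372 and 442 against 207 CPM, and GABAergic-like cells 111 and 99.4 against 48.2 CPM. Excitatory-like cells had 72.02 and 57.8 against 53.8 CPM (log2 fold changes 0.37 and 0.19), and their AcMor tags overlapped the Vehic tags. Whether a treatment effect differed between classes was not tested. In 2DCocu the glycinergic-like cells had 43.6, 49.7, 30.4 and 24.5 EGR1 CPM in Vehic, 53.3, 70.8, 65.5 and 85.7 CPM with AcCoc, and 80.5, 86.6, 45.2 and 72.5 CPM with AcMor. Every AcCoc tag lay above every Vehic tag. In cluster 12, which holds most of these cells, 20.98% of cells were marked as doublets, against 6.35% of all cells. The contrasts in this class were not refitted without doublets. The log2 fold changes were 0.86 (SE 0.21, edgeR adjusted p = 0.0513) for AcCoc and 0.94 (edgeR adjusted p = 0.0677) for AcMor, just outside the threshold, where 1.01% and 0.199% of genes were called. Coarser clusters gave 0.88 for AcCoc (edgeR adjusted p = 0.0469), and both were called without the third AcMor tag (edgeR adjusted p = 0.0406 and 0.0328) or the second Vehic tag (edgeR adjusted p = 0.0412 and 0.0386). Progenitor-like cells of 2DCocu had EGR1 means of 76.8 ± 18.9 CPM with AcCoc and 80.3 ± 15.2 CPM with AcMor against 50.3 ± 7.50 CPM in Vehic. Neither was called (edgeR adjusted p = 0.442 and 0.652), where 0.0354% and 0.00708% of genes were. The lowest AcCoc tag (60.79 CPM) and the highest Vehic tag (60.76 CPM) were nearly level, and the lowest AcMor tag had 65.1 CPM. The median mitochondrial share of the 2DCocu tags separated Vehic from both codes, at 0.968% to 2.17% in Vehic, 2.48% to 3.38% with AcCoc and 2.68% to 3.48% with AcMor. Its part in the EGR1 values of these classes was not tested. In GABAergic-like cells of 2DMono the EGR1 log2 fold changes were below 0, at -0.63 with AcDop and -0.43 with AcMor, with overlapping tags and no call. In progenitor-like cells of 2DMono the values were 0.002 and 0.74, and in excitatory-like cells -0.20 and 0.14, also uncalled. The progenitor-like AcMor tags had 86.3 and 101 CPM and the Vehic tags 52.6 and 57.0 CPM. In GABAergic-like and excitatory-like cells of 3DFusi the values were 0.42 and 0.77 with AcCoc and -0.26 and -0.43 with AcMor, none called.

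The share of cells with an EGR1 count averaged 50.2% over 3DMono tags and 31.5% over 2DMono tags, and 59.2% and 37.8% over 3DFusi and 2DCocu tags. With each cell thinned to 5000 counts, which left out 1596 shallower cells, the shares were 38.8%, 16.8%, 41.8% and 22.7%. For EGR3 the thinned shares were 3.16%, 1.15%, 5.86% and 1.24%. In progenitor-like cells the thinned EGR1 share was 66.2% in 3-D and 23.3% in 2-D, and in excitatory-like cells 17.9% and 10.2%. No class is known to lack EGR1, so no background share could be set beside these.

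EGR2 and EGR3 were counted more often in cells that held an EGR1 count. At thinned depth EGR3 was counted in 7.71% of 13151 cells with EGR1 and in 1.67% of 28946 cells without, a direction seen in 43 of 46 tags. EGR2 was counted in 3.31% and 0.636% of those cells, higher with EGR1 in 42 of 46 tags. Within 3-D progenitor-like cells EGR2 was in 4.82% of cells with EGR1 and 0.848% without. The gap varied between classes. It was smaller for EGR3 in 2-D progenitor-like cells (0.559% and 0.340%) and for EGR2 in 2-D glycinergic-like cells (1.31% and 1.04%). It was wider for EGR3 in 2-D GABAergic-like cells (9.62% and 0.606%) and for EGR2 in 2-D choroid-like cells (7.75% and 1.80%). These shares are a description over cells that share their tags, and each class pools the arrangements of a format.

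Across the 46 tags, which share 1 pool and fall into 9 arrangements, the members followed one another. Pearson's r of log2(CPM + 1) was 0.89 between EGR1 and EGR3, 0.81 between EGR1 and EGR2, 0.83 between EGR2 and EGR3 and 0.13 between EGR1 and EGR4. Of 13666 genes with a mean of at least 5 CPM, those most like EGR1 were EGR3, FOS (0.86), ERCC1 (0.86) and LTBP4 (0.81), where EGR2 lay below the floor on mean level. The genes most like EGR3 were ERCC1 (0.91), EGR1, FOS (0.89), FOSB (0.88) and ENSG00000285646 (0.88). FOSB lies within ERCC1 on the opposite strand, and reads of the pair cannot be told apart if strand was not used. For EGR2 the nearest were EGR3, EGR1, IER2 (0.75), FOSB (0.75) and ERCC1 (0.75), and for EGR4 they were CSMD1 (0.52), BCL6 (0.51), CALN1 (0.51), EFCAB6-AS1 (0.49) and CACNG2 (0.47). With arrangement means subtracted, r fell to 0.54 for EGR1 and EGR3, 0.57 for EGR1 and EGR2 and 0.49 for EGR2 and EGR3. EGR3 then ranked 276 of 13666 genes by likeness to EGR1, while EGR1 ranked 7 for EGR3 and 9 for EGR2. The genes most like EGR1 then were MIDN (0.72), MEIS3, HCFC1, PPP1R18 and PHC1 (0.70 each). SRF, the factor that binds CArG boxes, had 0.64 with EGR1 (rank 40) and 0.62 with EGR3 (rank 2).

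The other immediate early genes, a list of 35, moved unevenly with format. In 3DFusi against 2DCocu 20 of 34 tested were called higher and 3 lower, beside 25.2% and 23.1% of all genes, with a median log2 fold change of 0.92 beside 0.03 over all genes. With scaling by library size alone 22 were higher and 1 lower. FOSB, a partner in AP-1, had 44.6 ± 34.6 against 3.34 ± 0.940 CPM (3.49), FOS, another AP-1 subunit, 141 ± 52.8 against 15.8 ± 4.11 CPM (2.98) and KLF2, a zinc-finger factor, 8.27 against 1.05 CPM (2.67). In 3DMono against 2DMono 8 were higher and 14 lower, beside 17.1% and 19.9% of all genes, with a median of 0.02 beside 0.03. With scaling by library size alone the counts were 10 and 12. The most changed there were lower in 3-D: CCN2, a matricellular protein, at 3.56 against 131 CPM (-5.49), IER3 at 0.714 against 8.37 CPM (-3.66) and FOSL2, an AP-1 subunit, at 11.3 against 51.4 CPM (-2.43). For AcDop and AcMor in 3DMono 0 of 34 listed genes were called by edgeR, with 5 and 2 at an unadjusted p under 0.05. With AcDop 30 of the 34 had a log2 fold change above 0, with a median of 0.30 beside -0.01 over all genes, and with AcMor 19 had, with a median of 0.12.

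**Figure D5:**
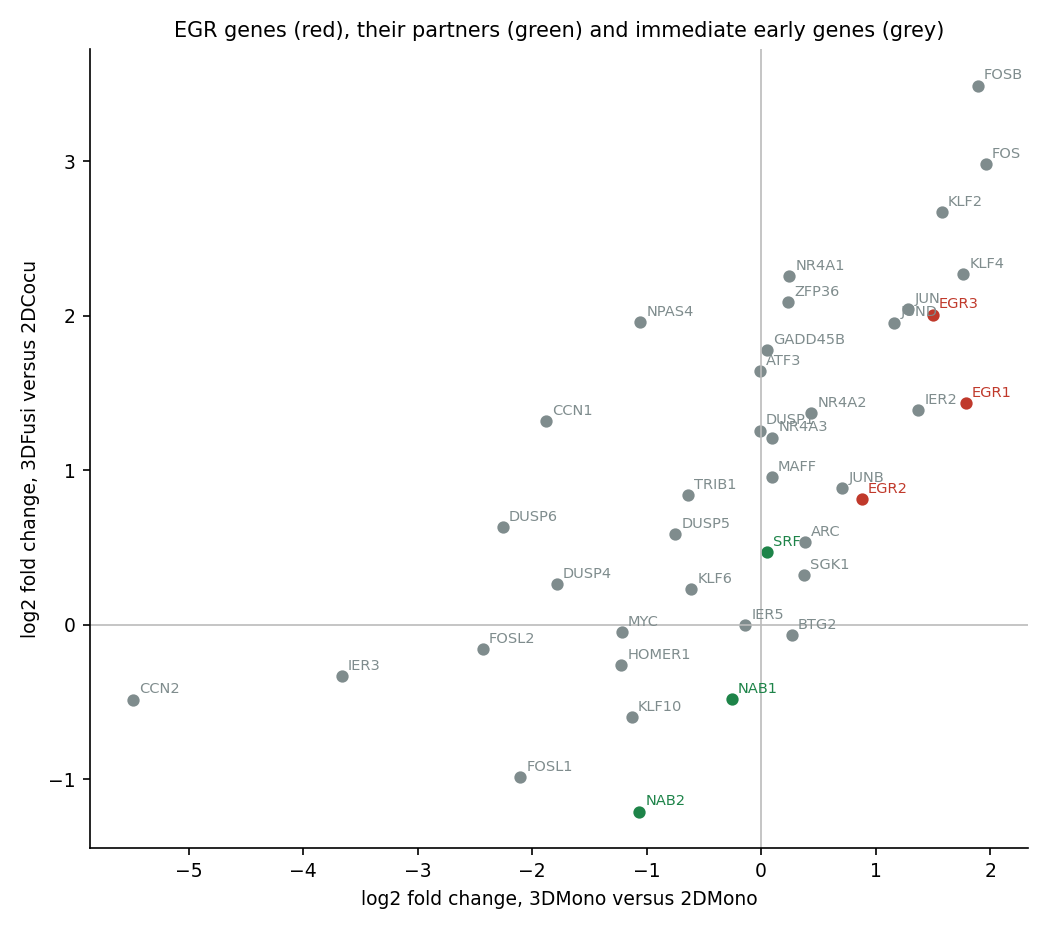
Log2 fold change of 3-D over 2-D in the 3DFusi and 2DCocu pair (vertical) against the 3DMono and 2DMono pair (horizontal) for EGR genes (red), SRF, NAB1 and NAB2 (green) and listed immediate early genes (grey). The 3 EGR genes lie above 0 on both axes and NAB1 and NAB2 below 0 on both, though EGR2 and NAB1 were not called in the Mono pair.

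Upstream of the EGR genes, 3 of 17 listed kinases and factors were called higher and 4 lower in 3DMono against 2DMono, and 3 higher and 6 lower in 3DFusi against 2DCocu, beside 17.1% and 19.9% of all genes in the Mono pair and 25.2% and 23.1% in the other. With scaling by library size alone the counts were 5 and 1, and 6 and 2. SRF had 22.9 against 18.8 CPM in the Mono pair (log2 fold change 0.05, edgeR adjusted p = 0.850; -0.21 in the Vehic tags alone) and was higher in 3DFusi than in 2DCocu, at 27.5 ± 4.06 against 18.3 ± 2.58 CPM (0.47, edgeR adjusted p = 0.00064), a call lost in the Vehic tags alone (0.25, edgeR adjusted p = 0.266). The most changed in the Mono pair were RPS6KA2, an RSK kinase, at 249 ± 37.8 against 375 ± 49.2 CPM (-0.79), RPS6KA5, the kinase MSK1, at 113 ± 15.7 against 61.2 ± 6.41 CPM (0.69), and MAPK3, the kinase ERK1, at 9.34 ± 1.97 against 5.68 ± 0.900 CPM (0.54). The MAPK3 call was lost without doublets (0.39, edgeR adjusted p = 0.107) and in the Vehic tags alone (0.48, edgeR adjusted p = 0.282). In 3DFusi against 2DCocu they were the RSK kinase RPS6KA1 (3.05 against 4.38 CPM, -0.65), ELK1, an ETS-family partner of SRF (12.2 against 7.51 CPM, 0.59), and RPS6KA2 (236 against 334 CPM, -0.57). The ELK1 call was lost in the Vehic tags alone (0.66, edgeR adjusted p = 0.0846). Scaling by library size alone left these 6 calls and their directions in place, and it moved the median of all genes in the Mono pair from 0.03 to 0.22.

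The corepressor NAB2 was lower in 3-D in both pairs. Of all genes, 19.9% were called lower in the Mono pair and 23.1% in the other. NAB2 was lower in 3DMono than in 2DMono, at 6.47 ± 1.90 against 11.8 ± 1.85 CPM, a log2 fold change of -1.06 (edgeR adjusted p = 0.000583). It was also lower in 3DFusi than in 2DCocu, at 8.64 ± 3.33 against 18.8 ± 5.51 CPM (-1.21, edgeR adjusted p = 1.3e-05), and its log2 fold change was below 0 in both pairs under each alternative tried for it. In 2DCocu NAB2 was lower with AcCoc, at 14.0, 16.2, 14.0 and 19.7 CPM against 27.2, 27.7, 25.2 and 20.2 CPM in Vehic (-0.62, edgeR adjusted p = 0.0333), and with AcMor its log2 fold change was -0.67 (edgeR adjusted p = 0.0567). With 1 edgeR fit over the 4 treated arrangements no gene was called for AcCoc in 2DCocu, NAB2 included. The mitochondrial share of these tags was 2.48% to 3.38% with AcCoc against 0.968% to 2.17% in Vehic, and its part in the NAB2 values was not tested. NAB2 shares 69 bases with STAT6 on the opposite strand. NAB1 had 49.0 against 51.3 CPM in the Mono pair (-0.26, edgeR adjusted p = 0.0609) and was lower in 3DFusi, at 42.4 ± 8.77 against 55.0 ± 5.85 CPM (-0.48, edgeR adjusted p = 0.0011). Between arrangements of 1 format, NAB2 was higher in 2DCocu than in 2DMono, at 20.1 ± 6.18 against 10.8 ± 1.13 CPM (0.79, edgeR adjusted p = 0.000647), where the EGR log2 fold changes were also above 0 without a call. Across tags NAB2 had r of -0.34 with EGR1, and 0.23 with arrangement means subtracted.

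Of 23 listed targets of EGR factors, 22 were tested in the Mono pair, and 2 were called higher and 12 lower, with a median log2 fold change of -0.51. With scaling by library size alone 3 were higher and 9 lower. The adhesion genes CD44 (5.33 against 171 CPM, -5.26) and ICAM1 (-3.90) and the matrix gene THBS1 (-3.77) were the most changed. In 3DFusi against 2DCocu 7 were higher and 12 lower of 23, with a median of -0.14, and TH, the enzyme of dopamine synthesis (3.68), the growth factor IGF2 (3.37) and CD44 (-2.56) led. With library size alone 7 were higher and 9 lower. Over all genes 17.1% were called higher and 19.9% lower in the Mono pair, and 25.2% and 23.1% in this one. The lists were not tested as sets.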

How the data were processed

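Cells of H1-derived cultures were profiled by split-pool single-cell RNA sequencing of polyA RNA. The authors deposited expected counts per gene and cell, not normalized, of which 54.3% of entries were whole. The submitters' processing notes name Salmon 1.7.0, alevin, Seurat 4.1.1 and hg38. Neither the use of strand nor the handling of reads that fit several genes is stated there. All deposited cells were kept, each with at least 1006 genes and at most 10.0% mitochondrial counts. A doublet score marked 2776 cells (6.35%), which were left out in an alternative only.

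Counts were summed per tag, or per tag and class with at least 20 cells, rounded, filtered with filterByExpr, scaled by TMM and tested in edgeR 4.0.16 (R 4.3.3), with Benjamini-Hochberg adjustment over all genes tested and a threshold of 0.05. CPM is the sum over the total of the tag. DESeq2 1.42.0 was an alternative, beside no filter, library-size scaling, Vehic tags alone, 1 fit over the treated arrangements, a block for the tag number, coarser clusters and leaving out each tag. Clusters (leidenalg 0.10.2, 29 clusters, EGR genes and all listed genes not used) were named where at least 3 markers of a list stood out, and 7050 2-D and 3525 3-D cells stayed unnamed. Same-numbered 3DFusi tags deviated together in every pair (r of 0.166 to 0.689), so the numbers were taken as pairing them. Those of 3DMono did so more weakly (r of 0.0812 to 0.311) and were not taken as pairing, nor were those of the 2-D arrangements. The treatment contrasts had a block for the tag number in the alternative only. The members and lists were chosen with earlier results of these data known. Named genes are the members, NAB1, NAB2, SRF, the 3 called genes of each list with the largest change, and the 5 most like each member, of which 1 is not reported here.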

Additional observations from a re-analysis of the deposited data

Results flagged for a closer look

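The 4 EGR genes were each tested for a value far from the rest in groups of at least 4 tags. These were AcCoc, AcMor and Vehic of 2DCocu and AcCoc of 3DFusi, and no other group was tested. Of these 16 tests, where chance flags about 1 in 20, 2 were marked, both for EGR1 with AcCoc. In 2DCocu the fourth AcCoc tag had 89.3 CPM, and the nearest of the other 3 had 61.8 CPM. In 3DFusi the second AcCoc tag had 288 CPM and the nearest had 230 CPM.

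The change of EGR levels from 2-D to 3-D differed between classes in 8 of 12 exact permutation tests. They were run for the EGR genes only, so the share of all genes that would pass is not known and the count is a description. Progenitor-like cells were mostly in different clusters in 2-D and 3-D, so format and cluster cannot be told apart. In the Mono pair progenitor-like cells exceeded excitatory-like cells by 1.27 log2 units for EGR1, 2.27 for EGR2 and 1.86 for EGR3, and GABAergic-like cells by 2.40, 2.79 and 2.22. In the 3DFusi and 2DCocu pair they exceeded glycinergic-like cells by 1.52 for EGR1 and 1.72 for EGR2.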

How the results depend on the processing

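Numbers of genes called moved with the processing. AcCoc in 2DCocu had 1281 calls, against 2007 with DESeq2, 2211 without doublets, 0 in 1 fit over the 4 treated arrangements and 407 to 1431 without a tag. AcMor in 2DCocu had 204, against 694 with DESeq2, 391 without the filter, 870 without doublets, 40 with the replicate block, 0 in 1 fit and 27 to 284 without a tag. With 0 calls by the test used, 3DFusi AcCoc had 1 (DESeq2) and 3 (1 fit); 2DMono AcDop 13 (DESeq2), 38 (no filter) and 0 to 2 (without a tag), and AcMor 19, 185 and 0 to 3. 3DMono AcDop had 17 (DESeq2), 145 (no filter), 2 (1 fit) and 0 to 48 (without a tag), and AcMor 174, 747, 36 (replicate block) and 0 to 400. The Vehic tags alone gave 3247 calls against 8403 for 3DMono over 2DMono, 6018 against 11354 for 3DFusi over 2DCocu, 3328 against 6286 for 2DCocu over 2DMono and 5 against 346 for 3DFusi over 3DMono. The last had 1549 with DESeq2, 629 without the filter, 211 without doublets and 68 to 1579 without a tag.

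Log2 fold changes past the threshold only under an alternative were, in 3DMono, EGR1 with AcDop (DESeq2 0.99, no filter 1.03), EGR1 with AcMor (DESeq2 1.04, no filter 1.09, replicate block 1.03) and EGR3 with AcMor (DESeq2 1.35, no filter 1.38). The same held for EGR2 in 3DMono over 2DMono (DESeq2 0.96, no filter 0.93, library size 1.07), EGR3 in 3DFusi over 3DMono (DESeq2 0.84) and EGR1 with AcCoc in glycinergic-like cells (coarser clusters 0.88). In the Vehic tags alone, where fewer tags are tested, EGR3 in 3DMono over 2DMono (0.84) and EGR2 in 3DFusi over 2DCocu (0.80) were lost. Signs turned for uncalled values: EGR1 in 3DFusi over 3DMono (0.41, Vehic alone), EGR3 in GABAergic-like cells (-0.0629, coarser clusters), EGR3 with AcCoc in 2DCocu (0.0345, no doublets), EGR1 with AcMor in 3DFusi (0.00197 DESeq2, 0.0381 no doublets, 0.0244 replicate block) and EGR2 there (-0.0107, library size). The cause was not tested. EGR calls within classes numbered 2 with coarser clusters and 0 to 4 without a tag. The replicate block changed no EGR call in 3DFusi. Thinned shares of cells were 22.7%, 16.8%, 41.8% and 38.8% for EGR1 in 2DCocu, 2DMono, 3DFusi and 3DMono, and 1.24%, 1.15%, 5.86% and 3.16% for EGR3.

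Without 1 tag in turn, the values that crossed 0 or the threshold ranged from -0.33 to 0.0652 (EGR1, 3DFusi over 3DMono), -0.0374 to 0.16 (EGR1, AcCoc in 2DCocu), -0.24 to 0.17 (EGR1, AcDop in 2DMono), -0.23 to 0.21 (EGR1, AcMor in 3DFusi), 0.83 to 1.21 (EGR1, AcMor in 3DMono), 0.66 to 1.17 (EGR2, 3DMono over 2DMono), -0.34 to 0.21 (EGR2, AcMor in 2DMono), -0.0908 to 0.18 (EGR2, AcMor in 3DFusi), -0.16 to 0.0434 and -0.14 to 0.23 (EGR3, AcCoc and AcMor in 2DCocu) and -0.51 to 0.56 (EGR3, AcDop in 2DMono). In glycinergic-like cells of 2DCocu EGR1 ranged from 0.70 to 1.02 (AcCoc) and 0.79 to 1.10 (AcMor), and in progenitor-like cells of 3DMono from 1.04 to 1.27 (AcDop) and 1.03 to 1.49 (AcMor), with EGR3 from 1.51 to 2.40 (AcMor). Few counts limit EGR2 in a tag and leave EGR4 without a test.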
